A study of Mus musculus with 65 samples.

Results

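The 10 genes described here make, bind, sense and destroy retinoic acid (RA): *Aldh1a2*, *Dhrs3*, *Crabp1*, *Crabp2*, *Rara*, *Rarb*, *Rarg*, *Cyp26a1*, *Cyp26b1* and *Cyp26c1*. They were chosen by name out of the 25239 genes in the expression table, and all 10 were found there. Each was followed as mouse embryonic stem (ES) cells of the HM1 line became spinal cord progenitors. The cells were fixed, stained for transcription factors inside the cell, sorted and sequenced in bulk, so each value is an average over one sorted population.

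The comparison groups share one culture history up to day 3. All cultures received bFGF with LGK, then bFGF with CHIR99021, SB-431542 and DMH1, and on day 3 they consisted of neuromesodermal progenitors (NMPs), the common precursors of spinal cord and trunk mesoderm. The 3 NMP libraries carry 0 nM of SAG. From day 3 the medium held 100 nM RA together with 0, 10, 100 or 500 nM of SAG, an agonist of Smoothened that stands in for Sonic hedgehog. On days 4, 5 and 6 SOX2-positive cells were sorted into p3, pMN, p2 and p0-1, the progenitor domains of the ventral neural tube from ventral to dorsal, with p0 and p1 taken as one population. Thus p0-1 came from 0 and 10 nM SAG, p2 from 10 and 100 nM, and pMN and p3 from 100 and 500 nM. These 24 groups had 1 to 3 libraries each, 16 libraries on day 4, 24 on day 5 and 22 on day 6, and replicates were independent differentiations. None of the 65 libraries came from cells given SAG without RA, or from cells kept without RA beyond day 3. An effect of RA therefore cannot be told apart from an effect of the day or of the change in cell state. Because the samples are bulk populations, fewer cells of a type and less RNA per cell cannot be told apart.

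Levels are given as normalised reads, the reads of a gene divided by a size factor of its library. Libraries held 7615114 to 13484815 reads, and 9718 to 15963 genes had at least 1 read. The NMP libraries detected more genes (14070 to 15963) than those of day 4 (9718 to 14433). The 4 libraries with fewer than 11000 detected genes were p3 on day 4 (100 nM, replicate 3), p3 on day 5 (100 nM, replicate 2), p2 on day 6 (100 nM, replicate 3) and p3 on day 6 (100 nM, replicate 2), and they are called the low-detection libraries here. The labels held up against the defining markers. *T* was at 909 to 3749 normalised reads in NMPs, *Olig2* at 447 to 6214 in pMN, the sum of *Nkx2-2* and *Nkx2-9* at 741 to 4882 in p3, and *Dbx1* at 56.1 to 3475 in p0-1.

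RA is a small lipophilic signal made from vitamin A. Retinol is oxidised to retinaldehyde, which enzymes of the ALDH1A family turn into RA. DHRS3 runs the first step backwards and so holds RA formation down. Inside the cell, CRABP proteins carry RA to the nuclear receptors RARα, RARβ and RARγ or to the CYP26 enzymes, which oxidise and inactivate it. In the embryo the somites beside the spinal cord make RA, and the signal promotes the exit from the NMP state and neural differentiation. Several genes of the pathway are themselves RA targets, and *Rarb* and *Cyp26a1* are the classical examples.

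The response elements of these classical targets are short, and they are shown here because both genes are followed below. Retinoic acid receptors bind pairs of half-sites that point the same way. The bases before the annotated start sites were read from RefSeq sequence of build GRCm38.p6, which has the coordinates of mm10. Of the 10 genes, 9 had at least one entry, with 15 windows of 250 bases in all. Each window was searched on both strands for the half-sites AGGTCA and AGTTCA as well as GGGTCA and GGTTCA in direct repeats with 1, 2 or 5 bases between them. Such a repeat was found in 2 of the 15 windows, those of *Rarb* and *Cyp26a1*, and both repeats had 5 bases between the half-sites. Across all 32851 windows of the same length, 29 (0.0883%) held a repeat with this spacing and 140 (0.426%) held one with any of the 3 spacings. The 2 windows are printed 5′ to 3′ on the strand of the gene, with the half-sites in capitals. In *Rarb* (chr14:16575477-16575726, minus strand) the repeat reads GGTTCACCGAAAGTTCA and lies 53 to 37 bases before the start. In *Cyp26a1* (chr19:37697558-37697807, plus strand) it lies 32 to 16 bases before the start on the other strand, where it reads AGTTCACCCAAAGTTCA.
Rarb: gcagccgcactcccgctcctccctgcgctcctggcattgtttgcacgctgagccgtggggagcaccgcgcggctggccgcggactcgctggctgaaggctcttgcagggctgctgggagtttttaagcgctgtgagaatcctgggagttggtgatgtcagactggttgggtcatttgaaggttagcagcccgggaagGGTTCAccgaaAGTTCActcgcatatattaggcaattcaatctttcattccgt
Cyp26a1: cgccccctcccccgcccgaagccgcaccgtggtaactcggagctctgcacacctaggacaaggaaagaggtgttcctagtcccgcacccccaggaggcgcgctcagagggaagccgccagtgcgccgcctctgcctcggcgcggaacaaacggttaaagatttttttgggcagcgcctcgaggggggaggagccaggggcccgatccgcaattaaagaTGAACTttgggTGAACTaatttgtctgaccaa
A match is a description of the letters and not evidence of binding in these cells. The windows end at the start site, so elements farther away or inside the gene were not searched.

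To ask how the pathway changed with time, one model was fitted to all genes and libraries, and the groups of each day were averaged. Of the 10 genes, 9 had a mean of at least 10 normalised reads over all libraries and were tested. *Cyp26c1* was not tested because its mean was 4.36. A gene is said to have risen or fallen where limma gave a Benjamini-Hochberg adjusted p below 0.01 over all 13964 tested genes and a change of more than 2-fold on the log2(value + 1) scale. Between day 3 and day 4 *Crabp1*, *Crabp2*, *Rarb* and *Dhrs3* rose and none of the 9 fell, where 1.32% of all tested genes rose and 2.18% fell. The median log2 change was 1.75 over the 9 genes and -0.40 over all tested genes.

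**Figure D1:**
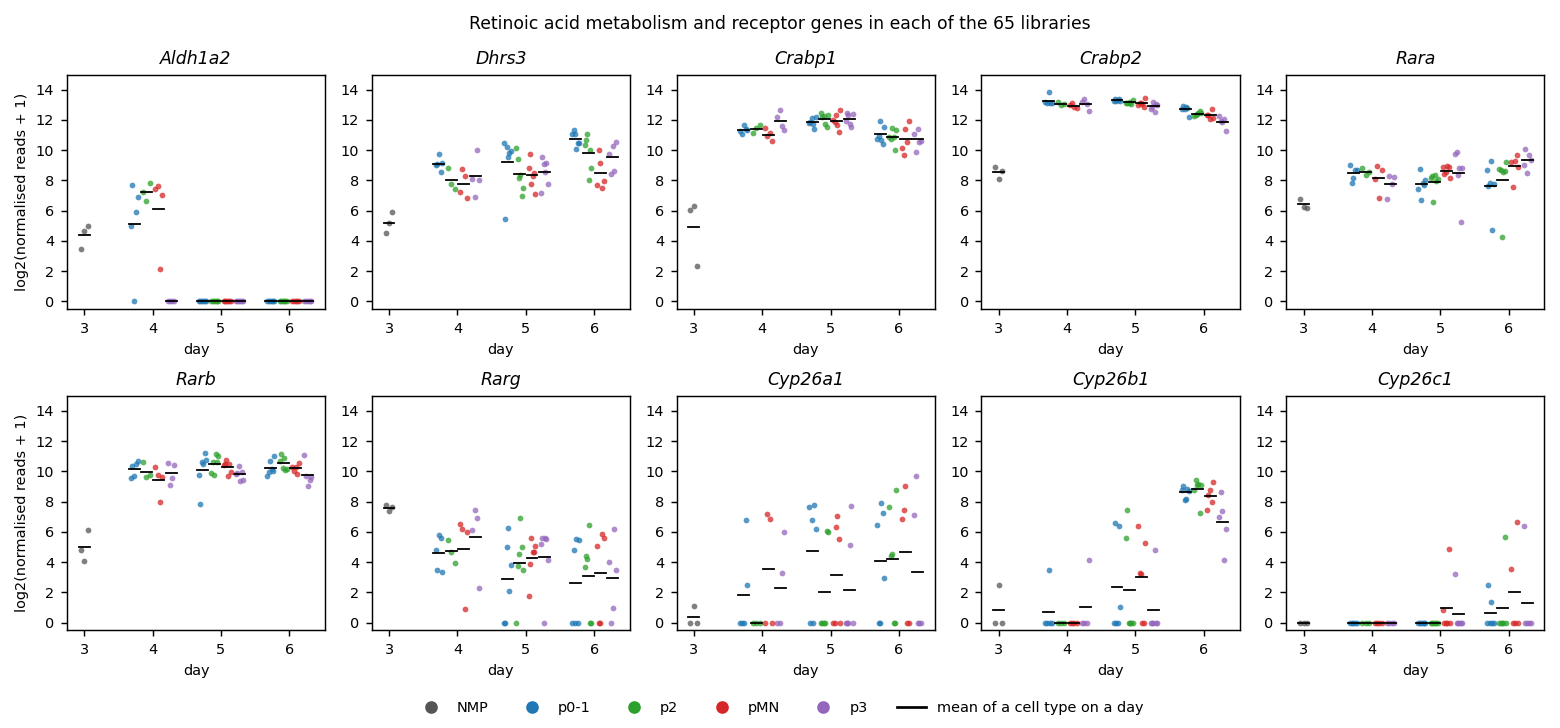
Each panel shows one gene, with the day on the x axis and log2(normalised reads + 1) on the y axis; each point is one of the 65 libraries, coloured by cell type, and a bar is the mean of a cell type on a day. *Crabp1*, *Crabp2* and *Rarb* step up between day 3 and day 4, *Aldh1a2* is at 0 in all libraries of days 5 and 6, *Cyp26b1* is up on day 6, and *Cyp26a1* is scattered between 0 and 835 normalised reads within cell types.

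Both binding proteins rose. *Crabp2*, which hands RA to the receptors, stood at 271, 390 and 469 normalised reads in the 3 NMP libraries and at 6278 to 14683 (median 8748) in the 16 libraries of day 4. The groups did not overlap, and the log2 change was 4.57 (SE 0.16, adjusted p = 1.26e-27). *Crabp1*, a binding protein linked to RA storage and breakdown, was at 4.08, 66.1 and 78.8 in NMPs and at 1588 to 6434 (median 2635) on day 4. Its log2 change was 6.52 (SE 0.43, adjusted p = 5.19e-17), again with no overlap. Both genes have short transcripts (802 bases of exon for *Crabp1*, 900 for *Crabp2*), and the authors left out duplicate reads, a step that takes most reads from genes that are both short and abundant. The effect of this step on the 2 fold changes was not tested.

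After day 5 the levels of both binding proteins were lower, and *Crabp1* fell. It was at 2329 to 6502 (median 4010) on day 5 and at 817 to 3979 (median 1786) on day 6. It fell by 1.12 on the log2 scale between these days (SE 0.20, adjusted p = 2.28e-04), with 22 of 22 libraries of day 6 below the median of day 5. *Crabp2* was at 5838 to 11336 (median 8906) on day 5 and at 2454 to 7599 (median 5140) on day 6. Its log2 change of -0.79 (SE 0.08, adjusted p = 8.58e-10) was shown by 22 of 22 libraries but was under 2-fold. On day 6 both stayed above every NMP library, with log2 changes from day 3 of 5.95 (SE 0.42, adjusted p = 2.89e-16) for *Crabp1* and 3.80 (SE 0.16, adjusted p = 4.72e-25) for *Crabp2*. Per kb of exon, the mean level of *Crabp2* was 6.76 times that of *Crabp1* on day 3 and 1.91 times on day 5. *Crabp2* was the higher of the pair, per kb, in 64 of 65 libraries.

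Of the 3 receptor genes only *Rarb* rose, and the order of their levels changed. *Rarb*, the receptor gene with the repeat printed above, was at 15.8, 26.5 and 69.3 normalised reads in NMPs and at 244 to 1658 (median 851) on day 4. The groups did not overlap, and *Rarb* rose by a log2 change of 4.95 (SE 0.40, adjusted p = 6.45e-14). Later it was at 227 to 2387 (median 1336) on day 5 and at 531 to 2241 (median 1123) on day 6. The log2 change was 0.23 from day 4 to day 5 (95% interval -0.20 to 0.65) and 0.0046 from day 5 to day 6 (95% interval -0.37 to 0.38).

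*Rara*, the most widely expressed receptor of the family, was at 72.0, 75.4 and 111 normalised reads in NMPs and at 108 to 517 (median 318) on day 4. All 16 libraries of day 4 exceeded the NMP median, but the log2 change of 1.75 (SE 0.69) did not pass the threshold (adjusted p = 0.139). It passed with quantile normalisation and with array weights, but not in edgeR (adjusted p = 0.0959) or DESeq2 (adjusted p = 0.0196). From day 3 to day 6 the log2 change was 2.09 (SE 0.67, adjusted p = 0.0278), with 20 of 22 libraries above the NMP median. The 2 others were p0-1 at 10 nM (replicate 2, 25.5) and p2 at 10 nM (replicate 3, 18.1). *Rara* passed the threshold when either of these 2 libraries was left out, with adjusted p = 0.0081 and 0.00503. It also passed with quantile normalisation (adjusted p = 0.000562), with array weights (0.000106) and in DESeq2 (0.000458), whereas edgeR did not call it.

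*Rarg*, a receptor known from early mesoderm and cartilage, gave lower values after day 3. It was at 162, 200 and 220 normalised reads in NMPs, at 0.869 to 173 (median 44.9) on day 4, at 0 to 118 (median 23.0) on day 5 and at 0 to 84.7 (median 13.5) on day 6. No library of day 6 reached the lowest NMP library. The log2 change from day 3 to day 6 was -4.43 with a wide error (SE 1.41), which did not pass the threshold (adjusted p = 0.0262). It passed in 2 of 75 alternatives, with a pseudocount of 10 (log2 change -3.03, adjusted p = 0.00192) and with array weights (-4.24, adjusted p = 0.000409). It did not pass in edgeR (adjusted p = 0.078), in DESeq2 (0.0876) or with the number of detected genes as a covariate (0.167).

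**Figure D2:**
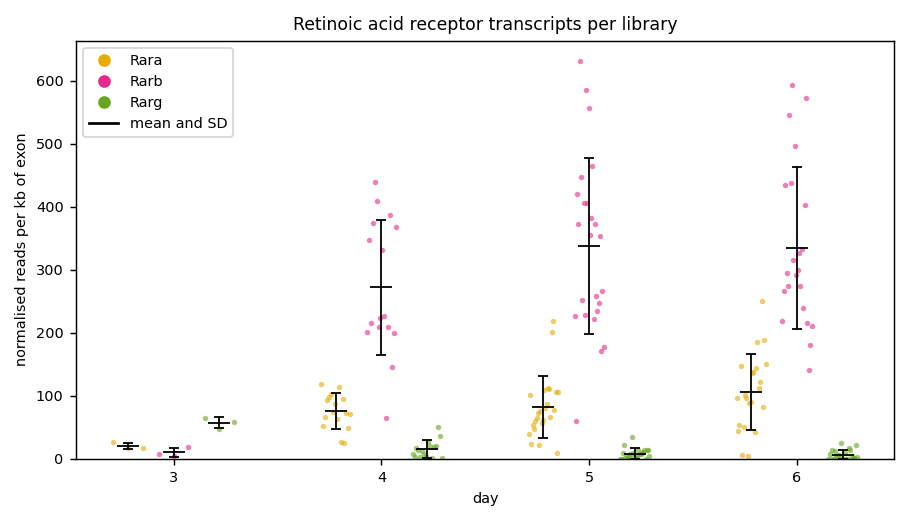
Normalised reads per kb of exon of the 3 receptor genes, with the day on the x axis; each point is a library, and the black bars give the mean and SD of each day. *Rarg* is the highest of the 3 genes on day 3 with a mean of 57.1 per kb, and *Rarb* is the highest on days 4, 5 and 6 with means of 272, 337 and 335 per kb.

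Because a longer transcript gives more reads, the receptors were compared with each other per kb of exon (4339 bases for *Rara*, 3776 for *Rarb* and 3399 for *Rarg*). In NMPs the mean levels per kb were 57.1 ± 8.65 (SD, n = 3) for *Rarg*, 19.8 ± 4.95 for *Rara* and 9.84 ± 7.51 for *Rarb*. The order was reversed on day 4, with 272 ± 108 (SD, n = 16) for *Rarb*, 75.4 ± 28.2 for *Rara* and 15.1 ± 13.8 for *Rarg*. *Rarb* exceeded *Rarg* per kb in 0 of 3 NMP libraries and in all 62 later libraries. *Rarb* exceeded *Rara* in 1 of 3, 16 of 16, 23 of 24 and 20 of 22 libraries on days 3, 4, 5 and 6. By day 6 the mean per kb of *Rarb* was 52.3 times that of *Rarg* and 3.17 times that of *Rara*. These ratios were not tested.

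*Dhrs3*, the retinaldehyde reductase, rose between day 3 and day 4 and had its highest values on day 6. It was at 22.3, 34.9 and 58.4 normalised reads in NMPs, at 114 to 1048 (median 343) on day 4, at 42.0 to 1391 (median 410) on day 5 and at 180 to 2561 (median 1040) on day 6. The change from day 3 to day 4 was 3.14 on the log2 scale (SE 0.65, adjusted p = 7.88e-04). It no longer passed without NMP replicate 1 (log2 change 2.81, adjusted p = 0.0243) or without NMP replicate 2 (3.12, adjusted p = 0.0116), which leaves 2 NMP libraries. The log2 change from day 5 to day 6 was 0.97 (SE 0.31) and did not pass (adjusted p = 0.0608). Over the whole interval from day 3 to day 6 *Dhrs3* rose by 4.41 (SE 0.63, adjusted p = 5.76e-07), with no overlap between the groups.

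*Aldh1a2*, the main RA-producing enzyme of the early embryo, was found on days 3 and 4 only. NMPs held 9.92, 24.8 and 31.3 normalised reads. On day 4 the 5 libraries of p0-1 held 0, 30.6, 60.2, 117 and 206, the 3 of p2 held 101, 149 and 223, and the 4 of pMN held 3.48, 132, 174 and 200, while all 4 of p3 were at 0. The log2 change from day 3 to day 4 was 0.27 (SE 0.79, adjusted p = 0.911). On days 5 and 6 all 46 libraries were at 0, and *Aldh1a2* was the only one of the 9 genes that fell from day 4 to day 5 (log2 change -4.66, SE 0.42, adjusted p = 8.92e-12). None of the 9 rose at this step, where 3.1% of all tested genes rose and 1.2% fell.

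By counting error alone, a count of 0 allows 3 reads. Against this limit the mean of *Aldh1a2* was at least 31.2-fold lower on day 5 than on day 4 and at least 7.44-fold lower on day 6 than on day 3. The limit leaves out variation between libraries, whose RNA the authors describe as limiting and of low quality. Within p0-1 on day 4 at 10 nM, *Aldh1a2* ranged from 0 to 117. Groups at 0 in every library have no finite mean in the log-scale count models, and there the fall from day 4 to day 5 was not called (adjusted p = 1 in edgeR and 0.179 in DESeq2). Markers of paraxial mesoderm, the tissue in which *Aldh1a2* is best known, were summed beside it. The sum of *Tbx6*, *Msgn1*, *Meox1*, *Tcf15* and *Foxc2* was at 4.08 to 130 in NMPs, with 3 of the 5 genes at 0 in all NMP libraries. This sum was at 0 to 291 (median 70.2) on day 4, with 1 of the 5 at 0 throughout, at 0 to 244 (median 70.5) on day 5 and at 0 to 220 (median 31.7) on day 6, with 1 at 0 on each day. Reads of these markers were scattered over libraries, with *Tbx6* at 0 in 9 of 24 libraries on day 5 and in 13 of 22 on day 6. Fewer libraries held reads of the NMP markers after day 4. On day 4 *Nkx1-2* had reads in 11 of 16 libraries (mean 61.2), *T* in 4 and *Cdx2* in 3. *Nkx1-2* was at 0 in all libraries of days 5 and 6, *T* had reads in 0 of 24 and 1 of 22, and *Cdx2* in 1 of 24 and 0 of 22. The sum of these 3 genes with *Sox2*, which neural progenitors keep, was at 593 to 1734 on day 4 and at 1222 to 2966 on day 5. The part of either set of markers in the loss of *Aldh1a2* was not tested.

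Of the enzymes that destroy RA, *Cyp26b1* was the one that rose, and in limma it did so at the last step. It was at 0, 0 and 4.5 normalised reads in NMPs, at 0 in 14 of 16 libraries of day 4 and at 0 in 14 of 24 of day 5, where the highest value was 175. On day 6 it was present in 22 of 22 libraries, at 16.5 to 700 (median 403). The rise from day 5 to day 6 was 5.98 on the log2 scale (SE 0.62, adjusted p = 2.54e-09), and 22 of 22 libraries lay above the median of day 5. DESeq2 also called *Cyp26b1* from day 4 to day 5 (adjusted p = 3.45e-21), where its mean went from 1.66 to 23.5. It called the gene from day 3 to day 4 too (adjusted p = 2.61e-08), where the means were 1.5 and 1.66. The limma log2 change there was -0.50. Several groups of day 4, such as both of pMN, were at 0 in every library. Such groups have no finite mean in this model, and the 2 calls are not read as rises here. From day 5 to day 6 *Cyp26b1* was the only one of the 9 genes that rose and *Crabp1* the only one that fell. At this step 0.501% of all tested genes rose and 0.351% fell. By cell type, day 6 gave 276 to 517 in p0-1 (median 425), 152 to 700 in p2 (median 555), 172 to 640 in pMN (median 348) and 16.5 to 396 in p3 (median 122).

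Neuron markers were also higher on day 6 than on day 5. The sum of *Tubb3*, *Elavl3*, *Stmn2* and *Dcx* was at 138 to 1880 (median 632) on day 5 and at 695 to 4135 (median 1623) on day 6, and none of the 4 genes was at 0 throughout on either day. The sum of the motor neuron markers *Isl1*, *Mnx1*, *Lhx3*, *Chat* and *Slc18a3* had medians of 147 and 356 on these days, with none of the 5 at 0 throughout. Before *Cyp26b1* rose, the neuron sum was at 636 to 1329 (median 1105) in NMPs and at 157 to 1107 (median 623) on day 4. The 4 genes of the sum did not run alike. On days 3 to 6 the means of *Stmn2* were 597, 390, 78.7 and 118. Those of *Tubb3* were 312, 184, 366 and 729, those of *Elavl3* 101, 61.3, 208.5 and 610, and those of *Dcx* 13.6, 5.33, 68.2 and 428. By cell type, the medians of the neuron sum on day 6 were 1262 in p0-1, 2554 in p2, 1629 in pMN and 1552 in p3. The part of these markers in the rise of *Cyp26b1* was not tested.

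*Cyp26a1*, the other gene with a repeat before its start, encodes an RA-degrading enzyme and passed the limma test at no step. DESeq2 called it from day 4 to day 5 (adjusted p = 0.000209). In this comparison p2 at 10 nM and p3 at 100 nM were at 0 in every library of both days, with no finite mean in that model. *Cyp26a1* was at 0, 0 and 1.13 normalised reads in NMPs. Later it was either absent or well present within one group: p3 at 100 nM on day 6, for example, held 0, 140 and 835. Over all 65 libraries 34 were at 0, 8 were above 0 and up to 50, and 23 were above 50, and 13 of the 25 groups held both a library at 0 and one above 50. The number above 50 was 0 of 3, 4 of 16, 9 of 24 and 10 of 22 on days 3 to 6. The means were 27.9, 51.1 and 134 on days 4, 5 and 6, and the whole course did not pass either (log2 change from day 3 to day 6 of 3.39, SE 1.93, adjusted p = 0.304). *Cyp26c1*, its neighbour on chromosome 19, was at 0 in all libraries of days 3 and 4. It had reads in 3 of 24 libraries on day 5 (highest 27.9) and in 6 of 22 on day 6 (highest 98.1).

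**Figure D3:**
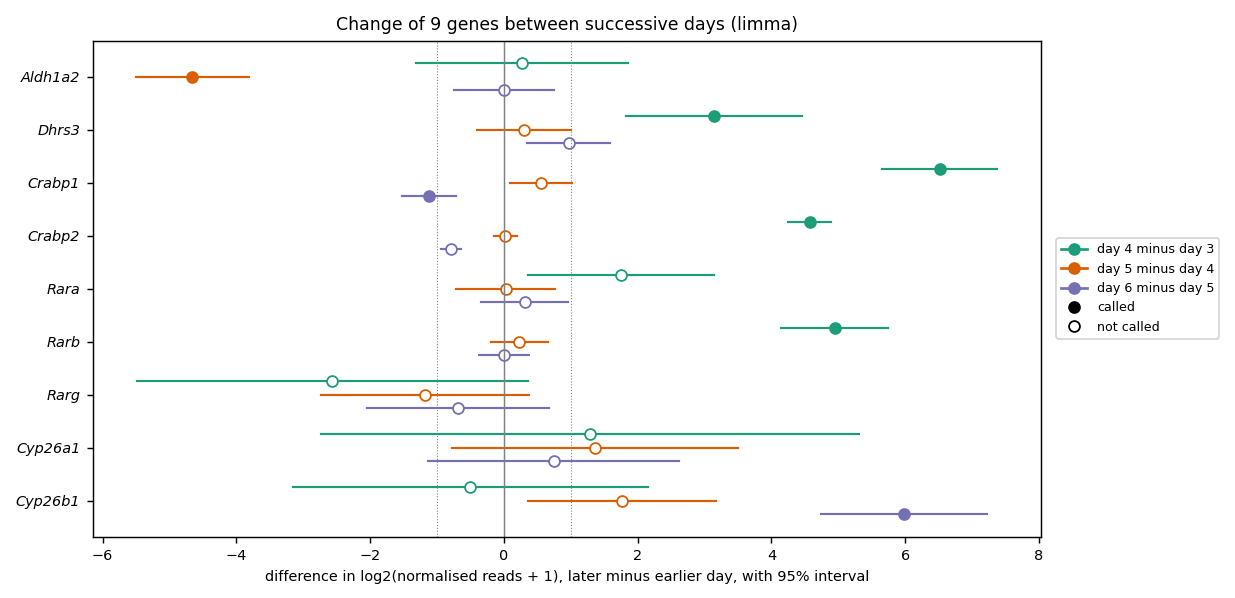
Difference in log2(normalised reads + 1) between successive days for the 9 tested genes, with 95% intervals from limma; filled points passed an adjusted p of 0.01 and a change of 2-fold (dotted lines). *Crabp1*, *Crabp2*, *Rarb* and *Dhrs3* rose at the first step, *Aldh1a2* fell at the second, and at the third *Cyp26b1* rose and *Crabp1* fell.

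Across the whole course from day 3 to day 6, 5 of the 9 genes rose (*Crabp1*, *Crabp2*, *Cyp26b1*, *Dhrs3* and *Rarb*) and 1 fell (*Aldh1a2*), where 2.85% of all tested genes rose and 4.69% fell. The median log2 change was 3.80 over the 9 genes, also with *Aldh1a2* at its limit, and -0.36 over all tested genes. For *Cyp26b1* the log2 change was 7.24 (SE 1.28, adjusted p = 2.97e-05), and it was not called by edgeR (adjusted p = 0.0466). For *Rarb* it was 5.18 (SE 0.39, adjusted p = 2.61e-15). For *Aldh1a2* it was -4.38 (SE 0.76, adjusted p = 2.55e-05), a call that was lost with quantile normalisation, with the number of detected genes as a covariate and with DESeq2 (adjusted p = 0.622). Both of the comparisons that start at day 3 use the same 3 NMP libraries.

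The SAG-dependent cell types were compared next, to ask whether the RA pathway differed between the domains of the neural tube. Except for p3 and pMN, the types of a pair came from different sets of SAG concentrations. In those pairs cell type and SAG cannot be fully told apart. On days 5 and 6, where p0-1 and p2 gave 12 libraries each and pMN and p3 gave 11 each, none of the 9 genes passed in any of the 6 pairs of cell types. The share of all tested genes called was 0.695% for p3 minus pMN, 1.27% for p3 minus p2, 1.43% for p3 minus p0-1, 0.107% for pMN minus p2, 0.96% for pMN minus p0-1 and 0.322% for p2 minus p0-1. In the same order, limma gave an unadjusted p under 0.05 for 2, 4, 4, 0, 3 and 2 of the 9 genes. Of all genes 11.3%, 17.5%, 15.9%, 10.6%, 11.7% and 8.16% had such a p. edgeR called 0, 0, 0, 0, 1 and 0 of the 9, where it called 0.365%, 0.874%, 0.931%, 0.0358%, 0.709% and 0.165% of all genes. DESeq2 called 1, 0, 2, 1, 1 and 1 of the 9, where it called 5.61%, 7.07%, 6.36%, 4.21%, 5.37% and 4.53%.

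*Crabp2* showed the clearest small difference. It was at 4651 to 10878 (median 8601) in p0-1, 4931 to 10263 (median 7369) in p2, 4301 to 11336 (median 7264) in pMN and 2454 to 9246 (median 5838) in p3. Its log2 difference between p3 and p0-1 was -0.63 (95% interval -0.85 to -0.42, adjusted p = 7.14e-05), which is less than 2-fold, and 10 of 11 libraries of p3 lay below the median of p0-1. On day 6 alone all 5 libraries of p3 (2454 to 5008) were below 5 of the 6 libraries of p0-1, and the groups overlapped through the library at 4651.

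*Dhrs3* was highest in p0-1. On day 6 it was at 1064 to 2561 (median 1789) in p0-1, 260 to 2102 (median 1148) in p2, 180 to 1016 (median 247) in pMN and 345 to 1503 (median 847) in p3, so that p0-1 and pMN did not overlap. Over days 5 and 6 the log2 difference between pMN and p0-1 was -1.64 (95% interval -2.50 to -0.77), with 11 of 11 libraries on that side and an adjusted p of 0.027. The call depended on 1 library and on the method. Without p0-1 on day 5 (0 nM, replicate 2), where *Dhrs3* was at 42.0, the log2 difference was -2.04 and passed (adjusted p = 0.000306). With all libraries kept it passed with array weights in limma (-1.90, adjusted p = 0.001445). It also passed in edgeR (adjusted p = 0.0078) and DESeq2 (adjusted p = 7.82e-05).

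*Rara* had its higher means in the ventral types, with 261 ± 164 in p0-1, 314 ± 153 in p2, 468 ± 170 in pMN and 595 ± 312 in p3 over days 5 and 6. The log2 difference of p3 from p0-1 was 1.22 (95% interval 0.30 to 2.14, adjusted p = 0.138). *Cyp26b1* was lower in p3 than in p0-1 by a log2 difference of -1.86 (95% interval -3.61 to -0.11, adjusted p = 0.276 in limma and 9.44e-08 in DESeq2). In p3 at 100 nM on day 5 *Cyp26b1* was at 0 in every library, a group with no finite mean in the DESeq2 model. The means of *Crabp1* over days 5 and 6 lay close together. They were 3013, 3200, 3184 and 3198 in p0-1, p2, pMN and p3, and its log2 difference of p3 from p0-1 had a 95% interval of -0.65 to 0.49.

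**Figure D4:**
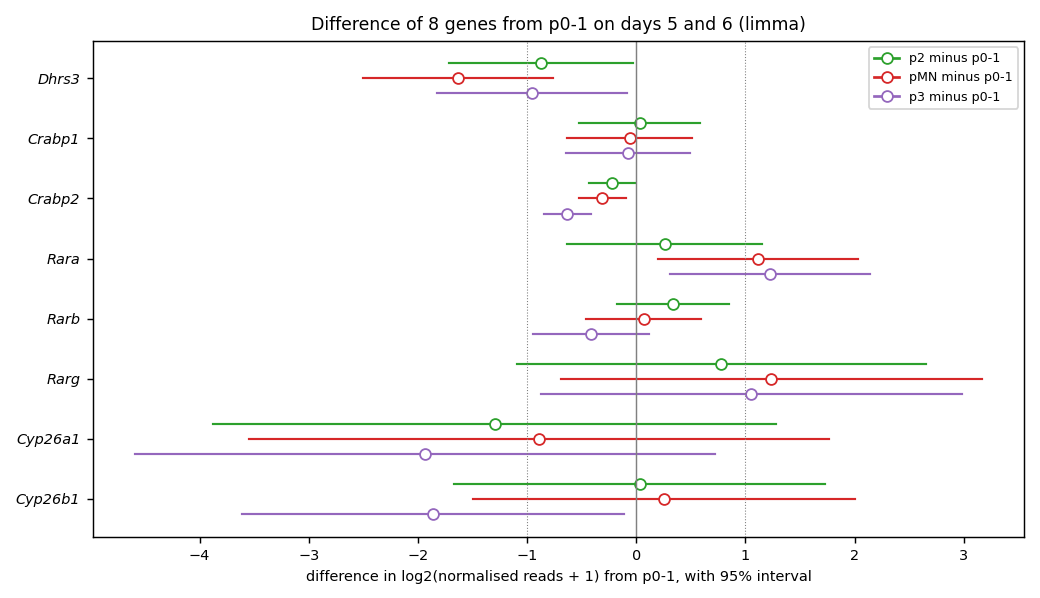
Difference in log2(normalised reads + 1) from p0-1 over days 5 and 6 for the 8 tested genes with reads on these days, with 95% intervals from limma; open points did not pass, and dotted lines mark 2-fold. *Dhrs3* and *Crabp2* lie below 0 in all 3 comparisons, and the widest intervals belong to *Cyp26a1*, *Cyp26b1* and *Rarg*.

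On day 4 the ventral types p3 and pMN were compared with p2 and p0-1. Of the 9 genes only *Aldh1a2* passed, lower in the ventral types by a log2 difference of -3.23 (SE 0.67, adjusted p = 9.28e-04), where 2.91% of all tested genes were called. limma gave an unadjusted p under 0.05 for 1 of the 9 genes and 17.8% of all genes. The per-library values above show what lies behind the average: p3 was at 0 in 4 of 4 libraries, whereas pMN held 132 to 200 in 3 of its 4. DESeq2 did not call *Aldh1a2* here (adjusted p = 0.722) and called *Cyp26a1* in its place (adjusted p = 4.92e-05). It called 16.3% of all genes, and edgeR called 0 of the 9 and 3.65% of all genes. For *Cyp26a1* both p2 groups of day 4 were at 0 in every library and had no finite mean in these models. The limma call rested on p3 at 100 nM, a single library and one of the low-detection libraries, and without it the log2 difference was -2.21 (adjusted p = 0.257). The marker sum for paraxial mesoderm was at 0 to 137 in p3 and at 22.1 to 291 in the other types, and *Nkx1-2*, an NMP marker, was at 0 to 44.7 in p3 and at 0 to 230 in the other types. Their part in the difference was not tested.

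Whether the change from day 4 to day 6 differed between ventral and dorsal types was tested as an interaction. No member passed, where 1.3% of all tested genes did. limma gave an unadjusted p under 0.05 for 2 of the 9 genes and 14.5% of all genes. edgeR called 0 of the 9 and 1.68% of all genes, and DESeq2 called 1, *Cyp26a1*, and 11.2%. The p2 groups of day 4, at 0 for *Cyp26a1* in every library, enter this comparison too. *Aldh1a2* was at 0 in every library of day 6, so its interaction (3.23, adjusted p = 0.0236) restates the difference on day 4 with the sign turned and is no separate result. For *Rara* it was 2.09 (SE 0.75, adjusted p = 0.136): the mean log2 level changed by 1.92 in p3 and 0.85 in pMN, and by -0.61 in p2 and -0.81 in p0-1.

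The same cell type was sorted from 2 concentrations of SAG, which allowed the dose to be compared within a type over days 5 and 6. No member passed between 0 and 10 nM in p0-1, 10 and 100 nM in p2, or 100 and 500 nM in pMN and in p3, where 0.0143%, 0.0358%, 0% and 0.0286% of all tested genes were called. In this order limma gave an unadjusted p under 0.05 for 1, 2, 0 and 0 genes, where 4.88%, 8.18%, 4.7% and 11.7% of all genes had such a p. edgeR called 0 in each, where it called 0.00716%, 0.00716%, 0% and 0% of all genes, and DESeq2 called 0, 2, 1 and 1, where it called 3.04%, 4.63%, 3.17% and 4.77% of all genes. The smallest p among them was that of *Dhrs3* in p2. It was at 283, 687, 1141, 1286, 1646 and 2102 at 10 nM and at 122, 178, 260, 331, 442 and 1010 at 100 nM. All 6 libraries at 100 nM lay below the median at 10 nM, with a log2 difference of -1.70 (95% interval -2.89 to -0.51, limma adjusted p = 0.371).

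The wider RA pathway was followed with a list of 46 other genes, of which 35 had enough reads to be tested. Of the 11 tested genes for retinol uptake, storage and conversion, none passed from day 3 to day 4 or from day 3 to day 6, and 1 rose from day 5 to day 6. Of the 11 tested partner receptors and cofactors none passed by day 4 and 1 fell by day 6. Of the 12 tested RA targets 5 rose and 1 fell by day 4, and 6 rose and 2 fell by day 6. Over all tested genes 1.32% rose and 2.18% fell by day 4, and 2.85% rose and 4.69% fell by day 6. The only tested member of the list for RA synthesis from retinaldehyde, *Cyp1b1*, rose from day 4 to day 5, and it is named after its values were seen. The median log2 change over the 35 genes was 0.37 by day 4 and 0.65 by day 6, beside -0.40 and -0.36 over all tested genes. No gene of the list passed between cell types on days 5 and 6.

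The homeobox genes *Meis1* and *Meis2* were among the genes of the list that rose by day 4. *Meis1* was at 0, 0 and 81.8 normalised reads in NMPs and at 584 to 2387 on day 4 (log2 change 8.27, SE 0.54, adjusted p = 3.23e-17). *Meis2* was at 0 to 26.5 and then at 374 to 1699 (7.05, SE 0.46, adjusted p = 3.64e-17). Their medians on day 6 were 2936 and 1365.

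*Cdx1*, a posterior homeobox gene that responds to both Wnt and RA, was the gene of the list that fell by day 4. It was at 425 to 839 in NMPs and at 0 to 96.0 on day 4 (log2 change -8.60, SE 0.71, adjusted p = 1.43e-13). By day 6 *Meis1* (9.30, SE 0.52, adjusted p = 8.93e-20), *Meis2* (7.51, SE 0.44, adjusted p = 7.93e-19) and the zinc-finger gene *Tshz1* (7.14, SE 0.48, adjusted p = 5.69e-17) had the largest rises. The falls by day 6 were *Cdx1* (-9.30, adjusted p = 1.85e-15), the hindbrain gene *Hoxb1* (-7.18, adjusted p = 0.00221) and *Rxrg* (-4.40, adjusted p = 0.00621), which encodes a partner of the RA receptors. *Rxrg* was at 0, 152 and 162 in the 3 NMP libraries, so 1 of them was as low as the later ones.

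Genes with similar patterns were sought among the tested genes with a mean of at least 100, by the Pearson correlation of mean log2 values over the 25 groups. These values describe the groups, which share the days and cell types, and carry no test. *Crabp1* and *Crabp2* were each other's nearest gene (r = 0.949), and *Sox1*, a marker of neural progenitors, was the next for both (0.913 and 0.936). For *Cyp26b1* the nearest were *Syt11* (0.941), *C130071C03Rik* (0.885) and *Son* (0.845). For *Rarb* they were *Mir219a-2* (0.902), *Spsb4* (0.901) and *Mir124-2hg* (0.901), and for *Dhrs3* *Cdh2* (0.864), *Marcks* (0.825) and *Nr2f2* (0.806). *Aldh1a2* was nearest to *Foxh1* (0.829), *Rara* to *9530068E07Rik* (0.793) and *Rarg* to *Lpin1* (0.766). *Cyp26a1* had no close match: its nearest gene was *Mgat5b* with 0.606.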

How the data were processed

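Bulk RNA sequencing of 65 sorted populations was analysed. The authors aligned reads with STAR to mm10 plus ERCC sequences in an nf-core pipeline and used featureCounts with refGene models to count reads per gene, without duplicates. Use of strand is not given in the sources used here, and libraries that failed quality criteria had been removed. The deposited values are a signal per gene, namely read counts that had been scaled with a size factor for each library. Of the 834400 values above 0, 100.0% lay within 0.01 of a whole multiple of the value of 1 read, and these reads entered the count models. The deposited annotation gives positions, other values from which exon lengths were taken. No gene of the 10 overlaps an exon of another gene.

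limma 3.58.1 (R 4.3.3) was fitted to log2(value + 1) of 13964 genes with a mean of at least 10, with a mean for each of 25 groups and an intensity trend (residual degrees of freedom 40, prior 7.4). It stands in for a count test, since the values are normalised. The study states no expression test, and its accessibility thresholds of adjusted p below 0.01 and 2-fold were used, with a minimum mean of 10 in place of its 100, which was an alternative. Days 4, 5 and 6 are averages of their 8 groups. For a gene at 0 in some libraries, the log-scale change can be larger or smaller than the ratio of means. For *Cyp26b1* from day 5 to day 6 they were 63.2-fold and 15.4-fold. For *Cyp26a1* from day 3 to day 6 they were 10.5-fold and 356-fold. The number of libraries showing a direction counts those beyond the other group's median. Per kb levels are normalised reads over exon length. Where a group is at 0, folds are limits against 3 reads per library. These limits cover counting error only, since the reads carry no molecular identifiers.

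All 10 genes are named, with at most 3 of the 46 other retinoid genes per direction for day 4 and day 6 against day 3, any called between cell types, and the 3 nearest genes of each. Some results for genes under this rule are not reported here. The members and lists were chosen with earlier results of these data known. Alternatives were edgeR 4.0.16, DESeq2 1.42.0, other filters, pseudocounts and normalisations, array weights, a detection covariate, a replicate block and leaving out each library; the models were tested on simulated data. Leaving out the 4 libraries with fewer than 11000 genes was added after seeing the data.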

Additional observations from a re-analysis of the deposited data

How the results depend on the processing

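Of the 13 calls of the 10 genes between days, 11 to 16 were made over the alternatives (12 to 14 when one library was left out, 11 with edgeR, 15 with DESeq2). The other retinoid genes gave 23 calls between days and 18 to 25 with one library left out; most of the loss came without an NMP library. Between cell types on days 5 and 6, where limma called 0 of the 10 genes, array weights and edgeR called 1, DESeq2 called 6, and leaving out one library gave 0 to 1. The other retinoid genes, also at 0 there, gave 2 with a pseudocount of 10, 1 with array weights, 1 with edgeR, 20 with DESeq2, 1 with the compared libraries alone, 2 without the 4 low-detection libraries and 0 to 2 with one library left out (1 without pMN on day 6 at 500 nM, replicate 1, and 2 without p3 on day 6 at 100 nM, replicate 1). The 1 call on day 4, *Aldh1a2*, became 0 with a minimum mean of 100, where it is not tested, with quantile normalisation, with detected genes as a covariate, with edgeR, with the compared libraries alone and without the 4 low-detection libraries, and ranged from 0 to 1 with one library left out. DESeq2 also lost *Aldh1a2* and kept a count of 1 by calling *Cyp26a1*. Between SAG concentrations DESeq2 called 4 instead of 0, and leaving out one library gave 0 throughout. In the interaction 1 call in place of 0 came without a filter, with array weights and with DESeq2, and 0 to 1 with one library left out. No direction was reversed in the 24 results of the 10 genes with the lowest adjusted p, which include all their calls. The direction of the other named results was not followed over the alternatives.

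The replicate numbers of the labels left little trace: deviations of same-numbered libraries of other groups correlated at a median of 0.016 (634 pairs, 5 over 0.1). Differently numbered libraries of other groups gave -0.008 (1262 pairs, 0 over 0.1). Same-numbered libraries of one day and SAG concentration, which may have been sorted from one dish, gave 0.032 (33 pairs, 1 over 0.1). Low correlations between noisy libraries cannot show that the samples are unpaired. With the replicate number as a block, the counts were 13 calls between days, 0 between cell types, 1 on day 4, 0 between SAG concentrations and 0 in the interaction, and 24 and 0 for the other retinoid genes. Groups of 1 to 3 libraries were too small to be searched for outlying libraries. Genes such as *Cyp26a1*, absent from some libraries of a group and abundant in others, had the widest errors, and smaller changes of these genes were not detectable at this spread.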
